A study of Mus musculus with 8 samples.

Results

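The genes described here handle lipid in macrophages. They are the scavenger receptors Cd36, Msr1 and Marco, the lipid sensor Trem2, the lipase Lpl, the fatty acid binding protein Fabp5, the lipid droplet protein Plin2, the cholesterol transporters Abca1 and Abcg1, and the apolipoprotein Apoe. These 10 genes were chosen by name, 1 row each, from the 54532 genes of the count table, and 9 of them were among the 12911 genes with enough counts to be tested. Their transcripts were counted by RNA sequencing of bone marrow-derived macrophages (BMDMs), grown from marrow cells in the presence of macrophage colony-stimulating factor, in 4 WT and 4 Gsdmd-/- libraries without treatment. Gsdmd encodes gasdermin D, the protein that forms membrane pores in pyroptosis, and the comparison asks what its loss does to resting macrophages. The methods of the study describe BMDMs from female C57BL/6J mice of 6 to 8 weeks of age, differentiated for 6 days. WT mice were bought from a supplier, whereas the Gsdmd-/- line was a gift from another laboratory and was kept in the university's own facility, so genotype and source of the mice cannot be told apart. Neither the labels nor the methods say that each library came from a separate mouse, and the p-values therefore measure the spread between libraries, which may be technical.

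Macrophages take up modified lipoproteins through scavenger receptors, which are not shut off by the cholesterol the cell already holds. The lipid is hydrolyzed in lysosomes, stored as cholesteryl ester and triglyceride in droplets coated with perilipins, or handed by ABC transporters to acceptors such as apolipoproteins. Nuclear receptors of the PPAR and LXR families, which sense fatty acids and oxysterols, are known to control many of these genes, and foam cells arise when uptake outruns efflux.

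The libraries held between 14935114 and 16794810 counts, and 0 counts in a library allowed up to 3 counts, or 0.177 to 0.199 CPM (counts scaled to the library size), for counting error only. Gsdmd itself had 73.8, 63.5, 68.5 and 95.5 CPM in WT 1 to 4 and 18.2, 14.4, 16.3 and 16.0 CPM in Gsdmd-/- 1 to 4. It fell in every Gsdmd-/- library, by 2.22 ± 0.14 on the log2 scale (standard error, adjusted p = 4.67e-05 by the quasi-likelihood test of edgeR with Benjamini-Hochberg adjustment, which gave all adjusted p-values below unless another tool is named). WT 2 and WT 3 stood apart from the other 6 libraries over all genes, with scores of 45.4 and 38.8 on a first principal component that held 43.6% of the variance, against -25.9 to -7.19 in the others. Macrophage markers were present in all 8 libraries. The summed CPM of 9 of them was lowest in WT 2 and WT 3, at 15468 and 17366, and lay between 19530 and 23597 elsewhere, which was mostly Lyz2. Of these 9 markers, 4 (Lyz2, Cd68, Itgam and Fcgr1) were lowest in that pair, while Adgre1 and Mertk were highest in it. Markers of adipocytes, erythroid cells and lymphoid cells were each at 1 CPM or less in every library. Those of neutrophils summed to between 4.63 and 6.98 CPM, mostly S100a8, and those of stromal cells to between 1.59 and 4.50 CPM, the most in WT 4. The summed dendritic cell markers were higher in WT 2 and WT 3, at 52.4 and 48.6 CPM against 16.9 to 22.7 CPM, which was mostly Clec9a, while Flt3 had at most 2 counts and Siglech 0 counts in any library. The summed mast cell markers were lower in them, at 16.1 and 16.3 CPM against 53.5 to 81.0 CPM, which was mostly Kit. The summed endothelial markers were lower too, at 30.9 and 28.8 CPM against 49.0 to 81.0 CPM, but this was mostly Kdr. Tie1, of the same list, was highest in WT 2 and WT 3, at 1.89 and 1.83 CPM against 0.12 to 0.66 CPM. Cdh5 was not low in them, at 5.38 and 5.86 CPM against 2.78 to 5.78 CPM. The part that these cell types had in the results below was not tested, and in such bulk RNA fewer cells of a type and less RNA per cell cannot be told apart.

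No member changed between the genotypes at an adjusted p under 0.05, which 0.349% of the 12911 genes passed. At the cutoff the study used for its volcano plot (log2 fold change of 0.5 or more in either direction, with an unadjusted p under 0.05), 0 of 9 members passed, against 4.83% of all genes. At an unadjusted p under 0.05 alone, 2 members passed, Fabp5 and Abcg1, against 12.0% of all genes. DESeq2 called 1 member, Fabp5, against 2.26% of the 12909 genes to which it gave an adjusted p. In Cd36, Plin2, Abcg1 and Apoe the larger differences lay among the WT libraries themselves. WT 2 and WT 3 were both above or both below all 6 other libraries in 6 of the 9 members, a pattern that 35.5% of all genes tested had. Cd36, Plin2 and Abcg1 were high in this pair, and Apoe, Msr1 and Fabp5 were low.

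Cd36, Plin2 and Apoe are shown by the sequence upstream of their start, since they had the largest SD of log2 CPM in WT among the members tested, and Cd36 and Plin2 were high where Apoe was low. The 250 bases before a RefSeq start (GRCm38.p6) were available for 6 members, Cd36, Marco, Abca1, Apoe, Trem2 and Plin2, in 8 windows, 3 of which are Apoe's. Capitals mark AGGTCA on either strand (its reverse complement is TGACCT), the half-site to which nuclear receptors bind. The letters CACGTG, an E-box, were searched as well. The Cd36 window, chr5:17835897-17836146 on the minus strand, lies inside the gene as GENCODE M21 draws it but in no exon. The Plin2 window is chr4:86670060-86670309 and the window of the most upstream Apoe start is chr7:19699189-19699438, both on the minus strand, and all are written 5′ to 3′.
Cd36: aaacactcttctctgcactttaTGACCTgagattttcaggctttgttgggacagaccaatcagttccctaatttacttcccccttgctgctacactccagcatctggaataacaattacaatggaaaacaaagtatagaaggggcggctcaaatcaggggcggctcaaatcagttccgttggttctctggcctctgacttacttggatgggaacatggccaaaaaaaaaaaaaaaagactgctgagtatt
Plin2: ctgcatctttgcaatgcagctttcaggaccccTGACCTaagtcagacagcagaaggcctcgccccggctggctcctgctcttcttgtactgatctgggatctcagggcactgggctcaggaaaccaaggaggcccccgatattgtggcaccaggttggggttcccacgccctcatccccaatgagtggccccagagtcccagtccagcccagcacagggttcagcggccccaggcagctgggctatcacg
Apoe: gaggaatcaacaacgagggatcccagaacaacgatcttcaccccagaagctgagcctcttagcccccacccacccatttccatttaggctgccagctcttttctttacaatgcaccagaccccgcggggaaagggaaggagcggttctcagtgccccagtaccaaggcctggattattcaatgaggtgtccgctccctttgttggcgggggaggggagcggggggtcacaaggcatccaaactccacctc
Counted from the start, the half-site begins at -228 in Cd36 and at -218 in Plin2. It was found in 3 of the 8 member windows, the other one being that of Trem2, and in 14.0% of all 32851 windows. The E-box was found in 1 member window, that of Abca1, and in 6.02% of all windows. Such a match is a run of letters and was not tested as a binding site.

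**Figure D1:**
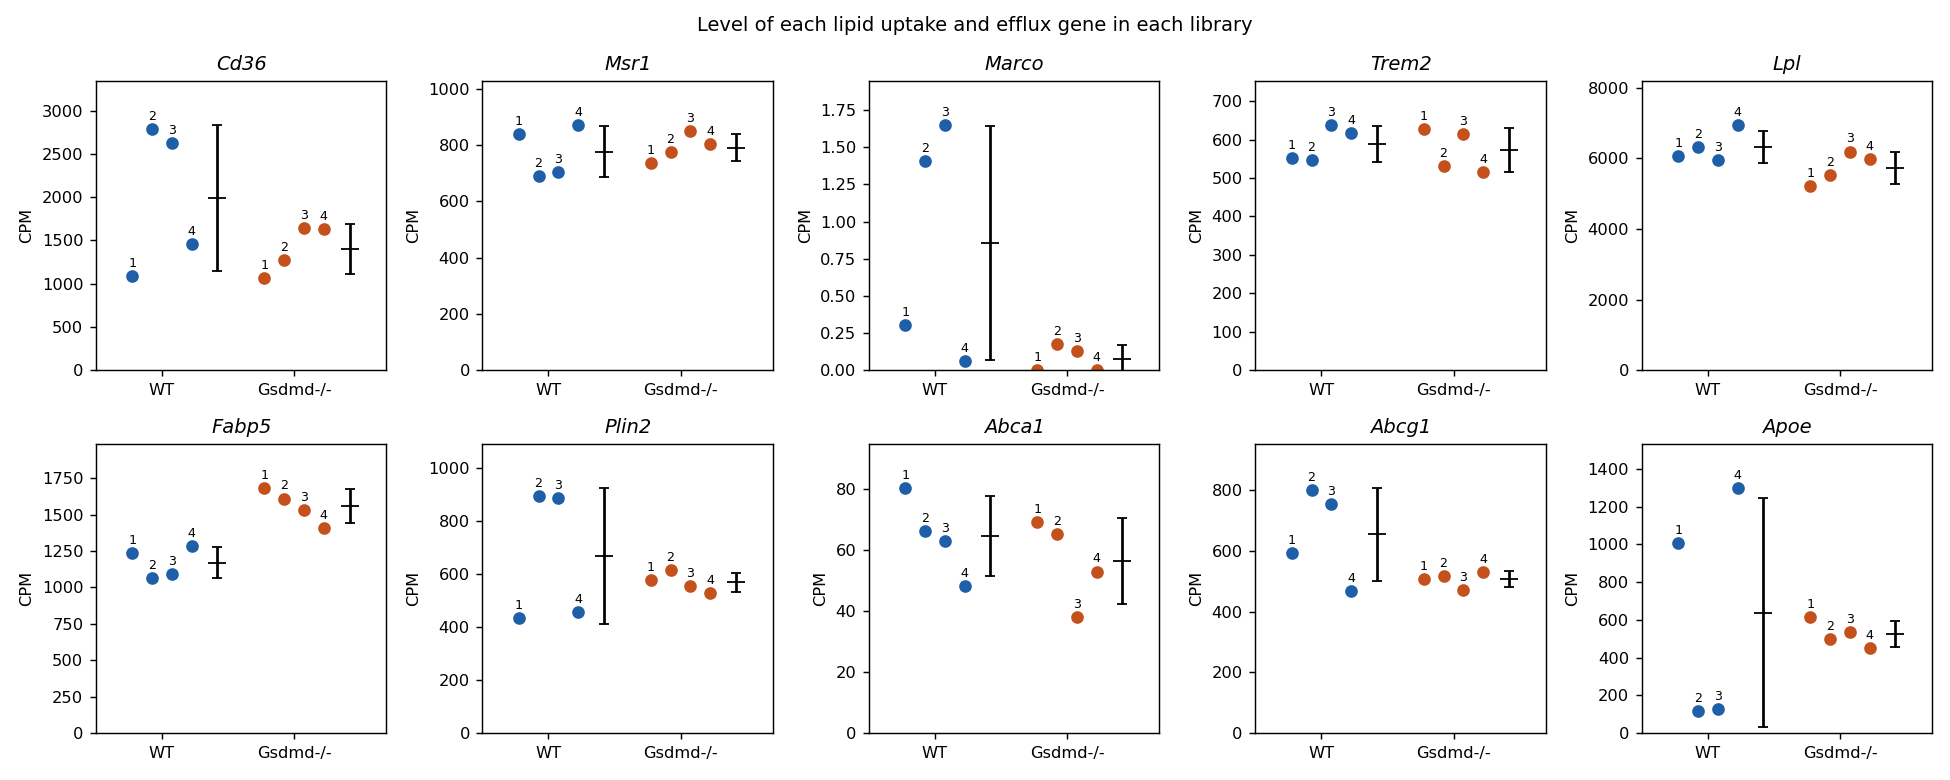
Level of each of the 10 genes in CPM (vertical axes, each from 0) in the 4 WT libraries (blue) and the 4 Gsdmd-/- libraries (orange), numbered by replicate, with mean and SD beside them (black). WT 2 and WT 3 lie together and away from WT 1 and WT 4 in Cd36, Plin2, Abcg1 and Apoe, and only Fabp5 has no overlap between the genotypes.

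Of the uptake receptors among the members, Cd36 and Msr1 were tested, and neither differed between genotypes beyond the spread of the libraries. Cd36 (chr5:17781690-17888801), which takes up long-chain fatty acids and oxidized low density lipoprotein, had 1090, 2784, 2627 and 1459 CPM in WT 1 to 4. In Gsdmd-/- 1 to 4 it had 1064, 1269, 1643 and 1636 CPM. WT 2 and WT 3 were the highest of all 8 libraries, while WT 1 and WT 4 lay within the Gsdmd-/- range, so the genotypes overlapped. Means were 1990 ± 842 CPM in WT and 1403 ± 286 CPM in Gsdmd-/- (SD, n = 4 each), and the log2 fold change was -0.50 ± 0.28 (adjusted p = 0.530). With WT 2 and WT 3 left out it turned to 0.14 ± 0.18 (adjusted p = 0.840).

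Msr1 (chr8:39581685-39642673), class A scavenger receptor 1, had 838, 691, 705 and 870 CPM in WT and 736, 774, 848 and 803 CPM in Gsdmd-/-. Here WT 2 and WT 3 were the lowest of the 8, but the highest library exceeded the lowest by only 1.26-fold. The log2 fold change was 0.03 ± 0.10 (adjusted p = 0.946), and -0.12 ± 0.09 without WT 2 and WT 3 (adjusted p = 0.679). Marco (chr1:120474538-120505024), a related receptor of certain tissue macrophages, was near the detection limit. It had 5, 23, 27 and 1 counts in WT 1 to 4 and 0, 3, 2 and 0 counts in Gsdmd-/- 1 to 4, and it did not pass the filter on low counts. Most of its counts were thus in WT 2 and WT 3, where it reached 1.41 and 1.65 CPM. Fitted without the filter, Marco had an unadjusted p of 0.00129 and an adjusted p of 0.134. No fold change is given for it, since WT 4 and all Gsdmd-/- libraries were at or under the 3 counts that 0 allows.

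Trem2 and Lpl were steady in all libraries. Trem2 (chr17:48346401-48354147), a receptor for lipids and lipoproteins that signals through the adaptor Tyrobp, had 551, 547, 638 and 618 CPM in WT. Its Gsdmd-/- values were 627, 531, 615 and 515 CPM. Gsdmd-/- 2 and Gsdmd-/- 4 were below every WT library and the other two lay among them, and the log2 fold change was -0.04 ± 0.10 (adjusted p = 0.904). Lpl (chr8:68880491-68907448), the lipase that releases fatty acids from triglyceride-rich lipoproteins, was the 13th gene of the table by mean CPM. It had 6075, 6325, 5938 and 6935 CPM in WT and 5201, 5531, 6190 and 5973 CPM in Gsdmd-/-. Gsdmd-/- 1 and Gsdmd-/- 2 were below every WT library, whereas the other two lay among them. For Lpl the log2 fold change was -0.14 ± 0.09 (adjusted p = 0.598), which was -0.19 ± 0.10 without WT 2 and WT 3 (adjusted p = 0.483).

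Fabp5 was the only member whose genotypes did not overlap. Fabp5 (chr3:10012548-10016607) carries fatty acids through the cytosol and to nuclear receptors. It had 1239, 1066, 1094 and 1282 CPM in WT 1 to 4, and 1685, 1611, 1534 and 1410 CPM in Gsdmd-/- 1 to 4. All 4 Gsdmd-/- libraries were above all 4 WT libraries, a separation in one or the other direction that 7.60% of all genes tested showed. The means were 1170 ± 106 and 1560 ± 117 CPM, so that Gsdmd-/- stood at 133% of WT. The log2 fold change was 0.42 ± 0.10, with an unadjusted p of 0.00147 and an adjusted p of 0.124, and the two-sided exact permutation test gave p = 0.0286, the smallest that 4 against 4 libraries can give. Only DESeq2 put it under the threshold (adjusted p = 0.00397), and over the 16 alternatives its log2 fold change stayed between 0.31 and 0.46 while its adjusted p ran from 0.00397 to 0.399. Without WT 2 and WT 3, which were its lowest libraries, the value was 0.31 ± 0.10 (adjusted p = 0.196). Its processed pseudogene Fabp5l2 held 1 count in all.

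Plin2 was highest in WT 2 and WT 3, as Cd36 was. Plin2 (chr4:86648386-86670060), also called adipophilin, coats lipid droplets and is widely used as a mark of stored neutral lipid. It had 432, 892, 888 and 456 CPM in WT and 577, 614, 556 and 529 CPM in Gsdmd-/-. The Gsdmd-/- libraries all lay between the lower and the upper pair of WT libraries. Its WT mean of 667 ± 258 CPM and its Gsdmd-/- mean of 569 ± 36.0 CPM gave a log2 fold change of -0.23 ± 0.23 (adjusted p = 0.748). The sign turned without WT 2 and WT 3, to 0.36 ± 0.09, with an unadjusted p of 0.00392 and an adjusted p of 0.127.

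The efflux transporters had lower means in Gsdmd-/- and did not pass the test. Abca1 (chr4:53030787-53159895), which loads cholesterol and phospholipid onto lipid-poor apolipoprotein, had 80.3, 66.0, 63.0 and 48.3 CPM in WT and 69.2, 65.2, 37.9 and 52.9 CPM in Gsdmd-/-. The groups overlapped, and the log2 fold change was -0.19 ± 0.20 (adjusted p = 0.749). Abcg1 (chr17:31057675-31117988), which exports cholesterol toward high density lipoprotein, had 595, 802, 757 and 469 CPM in WT and 509, 518, 471 and 531 CPM in Gsdmd-/-. Its highest libraries were WT 2 and WT 3, WT 1 was next, and WT 4 was the lowest of the 8. Abcg1 was thus 656 ± 153 CPM in WT and 507 ± 25.8 CPM in Gsdmd-/-, and its log2 fold change of -0.37 ± 0.15 had an unadjusted p of 0.0349 and an adjusted p of 0.374. With WT 2 and WT 3 left out little of it remained, at -0.07 ± 0.11 (adjusted p = 0.866).

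Apoe had the widest range of the members tested, and what it showed depended on 2 libraries. Apoe (chr7:19696109-19699188), the apolipoprotein that macrophages secrete and that accepts their cholesterol, had 1010, 116, 125 and 1300 CPM in WT 1 to 4. In Gsdmd-/- 1 to 4 it had 614, 500, 534 and 453 CPM. The lowest of all libraries were WT 2 and WT 3, WT 1 and WT 4 were the highest, and every Gsdmd-/- library lay between these pairs, with 11.2-fold between the extremes. Over all 8 libraries the log2 fold change was -0.28 ± 0.67 (adjusted p = 0.903). The mean of log2 CPM differed in the opposite direction, by 0.49. Without WT 2 and WT 3 Apoe fell by 1.14 ± 0.13 on the log2 scale in Gsdmd-/- (adjusted p = 0.00576), and it was then the only member called, against 1.21% of 13288 genes tested. That comparison has 2 WT libraries, and with both the 1010 and 1300 CPM of WT 1 and WT 4 above every other library its result rests on them.

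**Figure D2:**
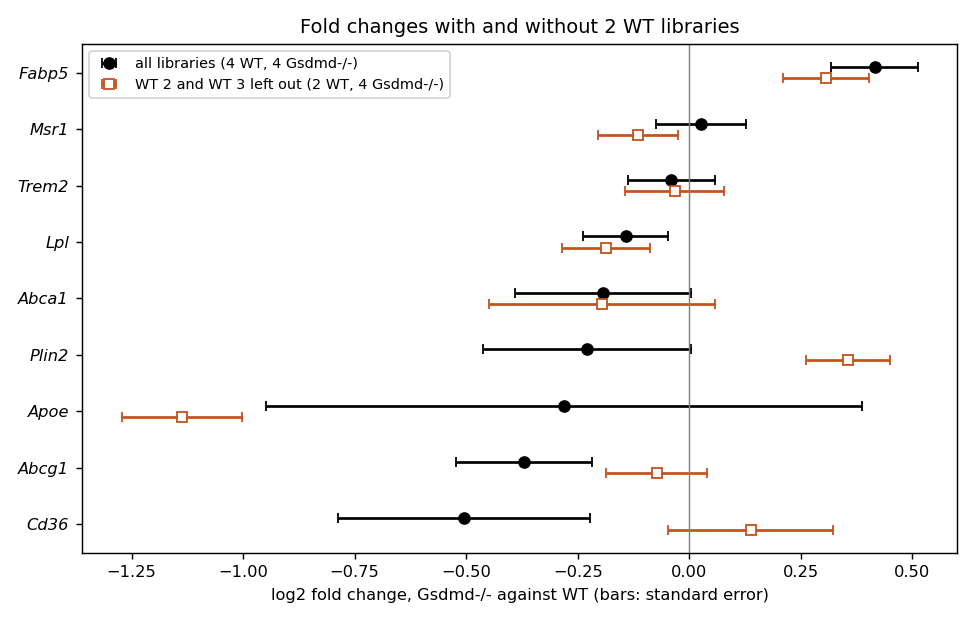
Log2 fold change of Gsdmd-/- against WT (horizontal axis, bars are standard errors) of the 9 members tested, over all libraries (black circles) and with WT 2 and WT 3 left out (open squares). Cd36 and Plin2 moved from negative to positive, Abcg1 moved close to 0, Apoe moved to -1.14, and Fabp5 stayed positive in both.

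Across the 9 members tested, 2 had a log2 fold change above 0 and 7 below, with a median of -0.19, against a median of -0.0068 over all genes. After leaving out WT 2 and WT 3, 3 were above and 6 below 0, with a median of -0.07. Summed over all 10 genes, the members took 11910, 13292, 12835 and 13437 CPM in WT 1 to 4 and 11081, 11412, 12427 and 11902 CPM in Gsdmd-/- 1 to 4, with Lpl as the largest share in each. Their spread was larger in WT for 6 of 9 members (66.7%), as it was for 71.7% of all genes tested. The median SD of log2 CPM of the members was 0.30 in WT and 0.11 in Gsdmd-/-, and that of all genes was 0.24 and 0.16.

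Per length of exon, Lpl and Cd36 had the highest means in WT, but the order differed between the WT libraries. The length joins all annotated exons of a gene and may exceed that of the transcripts made here, which was not tested, so the order depends on it. CPM per kb were 603 ± 42.1 for Lpl and 554 ± 235 for Cd36 (SD, n = 4), which differed by less than the spread of Cd36. Fabp5 at 328 ± 29.7 and Apoe at 298 ± 285 CPM per kb came next by their means and were not separated either. In WT 1 and WT 4 Apoe, at 472 and 608 CPM per kb, was above Fabp5 (347 and 359) and Cd36 (304 and 406). In WT 2 and WT 3 Cd36, at 776 and 732 CPM per kb, was above Lpl (604 and 567), and Apoe, at 54.5 and 58.4, was below Abcg1 (110 and 104). Plin2 followed at 190 ± 73.4, Msr1 at 122 ± 14.4, Trem2 at 119 ± 9.36 and Abcg1 at 89.8 ± 21 CPM per kb, and only Abca1, at 6.21 ± 1.27, and Marco, at 0.44 ± 0.41, were far below. In Gsdmd-/- Fabp5 (437 ± 32.9 CPM per kb) stood above Cd36 (391 ± 79.6 CPM per kb), within the spread of the latter, and Lpl again led, at 546 ± 42.3 CPM per kb.

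**Figure D3:**
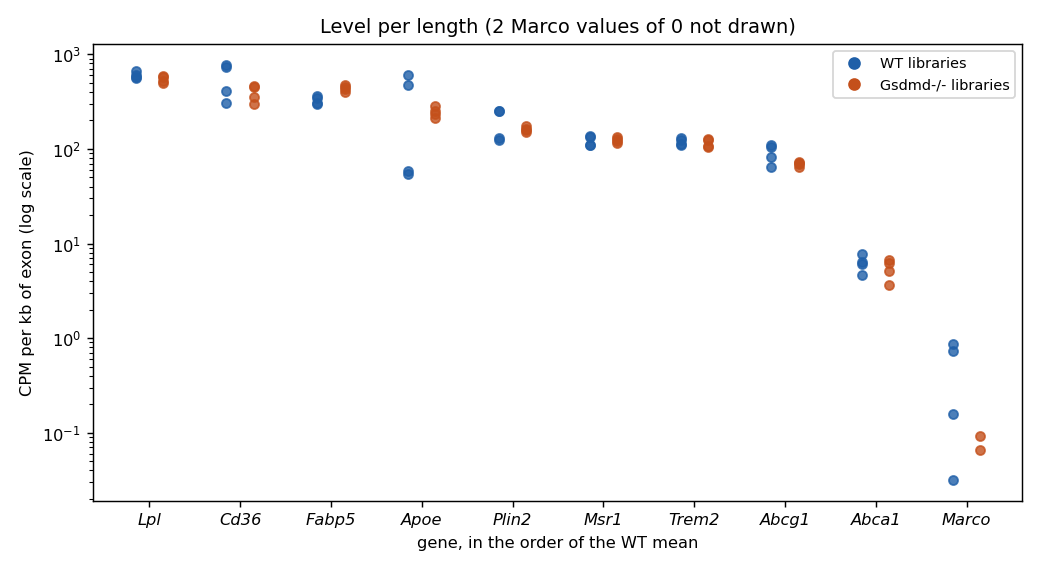
CPM per kb of exon (vertical axis, log scale) of the 10 genes in the order of their WT mean, with a point per library (blue WT, orange Gsdmd-/-). Abca1 lay near 6 and Marco under 1 CPM per kb, and the WT points of Apoe fell into a high and a low pair.

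Other genes of lipid handling were counted from lists of receptors, efflux and apolipoprotein genes, lipases, fatty acid enzymes, droplet genes, nuclear receptors, Trem2 signaling and genes of lipid-associated macrophages, 81 in all. Of these, 71 were tested, and no gene passed an adjusted p of 0.05 by edgeR, while 14 of 71 had an unadjusted p under 0.05, beside 12.0% of all genes. DESeq2 called 2 of 71, Lgals1 (higher) and Olr1 (lower), beside 2.26% of all genes. At the cutoff of the study 1 gene was higher and 4 were lower in Gsdmd-/-, or 5 of 71 beside the 4.83% of all genes. Their log2 fold changes were above 0 for 24 genes and below 0 for 47, with a median of -0.09 that became 0.0041 without WT 2 and WT 3. These 2 libraries stood apart in 32 of the 71 genes, above the others in 24 and below them in 8, and in 35.5% of all genes, above in 2316 and below in 2263. The genotypes did not overlap in 6 of the 71 genes, 3 of them higher in Gsdmd-/- (Acsl1, Acsl3 and Lgals1) and 3 lower (Abca7, Lmf1 and Itgax), beside 7.60% of all genes.

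Of the receptors, Olr1, which binds oxidized low density lipoprotein, had 16.1, 38.2, 41.7 and 22.3 CPM in WT and 13.4, 13.0, 15.4 and 19.1 CPM in Gsdmd-/-. The same pair was highest, and its log2 fold change of -0.96 ± 0.28 (adjusted p = 0.221) was -0.34 without them (adjusted p = 0.491). Cd68, a lysosomal glycoprotein, had the highest value of the receptors tested over all 8 libraries, 0.16 ± 0.24 (adjusted p = 0.834), but -0.26 without WT 2 and WT 3 (adjusted p = 0.387), when it was no longer the highest. Among the efflux genes the range ran from Abca7, a relative of Abca1, at -0.50 ± 0.15 (adjusted p = 0.231) to Ch25h, which makes the oxysterol 25-hydroxycholesterol, at 0.37 ± 0.35 (adjusted p = 0.730). Leaving out WT 2 and WT 3 brought Abca7 to -0.24 and turned Ch25h to -0.18 (adjusted p = 0.491 and 0.816). The genotypes did not overlap in Abca7, though the highest Gsdmd-/- library, at 59.84 CPM, was just below WT 4, at 59.88 CPM. Apoc2 and Apoc4, which lie beside Apoe in the genome, had 0 counts in all 8 libraries.

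The inhibitor of Lpl, Angptl4, followed the same pair of libraries. It had 1.40, 11.0, 13.4 and 2.01 CPM in WT and 1.54 to 1.95 CPM in Gsdmd-/-, a log2 fold change of -1.99 ± 0.65 (adjusted p = 0.272). After leaving out that pair it was 0.04 (adjusted p = 0.977). Nceh1, a cholesteryl ester hydrolase, was at the upper end of the lipases, at 0.21 ± 0.10 (adjusted p = 0.434), and at 0.33 without that pair (adjusted p = 0.185). In fatty acid activation and oxidation, the log2 fold change of Acsl3 was 0.50 ± 0.14 (adjusted p = 0.210) with no overlap between genotypes, from 6.78 to 9.62 CPM in WT and from 9.94 to 12.6 CPM in Gsdmd-/-. WT 2 and WT 3 were the lowest libraries of Acsl3, and its value without them was 0.35 (adjusted p = 0.355), under the study's cutoff. Cpt1a, the gate of fatty acid entry into mitochondria, had -0.53 ± 0.21 (adjusted p = 0.360) and was highest in WT 2 and WT 3, at 179 and 164 CPM against 79.6 to 107 CPM elsewhere, and its value without them was -0.07 (adjusted p = 0.904).

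Droplet genes ran from Lpin1, a phosphatidate phosphatase, at -0.41 ± 0.19 (adjusted p = 0.441) to Dgat2, which makes triglyceride, at 0.27 ± 0.38 (adjusted p = 0.818). Both were close to 0 when WT 2 and WT 3 were left out, Lpin1 at -0.08 (adjusted p = 0.913) and Dgat2, whose sign turned, at -0.06 (adjusted p = 0.977). Among nuclear receptors and their targets, Pparg had the highest value, 0.10 ± 0.14 (adjusted p = 0.818), and 0.39 without WT 2 and WT 3 (adjusted p = 0.101). The lowest was that of Mylip, the LXR target that degrades the low density lipoprotein receptor, at -0.58 ± 0.18 (adjusted p = 0.266). Without WT 2 and WT 3 it had -0.71 (adjusted p = 0.156). In Trem2 signaling, Plcg2 had -0.22 ± 0.09 (adjusted p = 0.382) and the adaptor Hcst 0.43 ± 0.23 (adjusted p = 0.506). Leaving out the pair gave -0.33 for Plcg2 (adjusted p = 0.174) and 0.10 for Hcst (adjusted p = 0.891).

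Of the genes known from lipid-associated macrophages, Lgals1 (galectin 1) and Itgax (integrin CD11c) were the 2 without overlap. Lgals1 ranged from 659 to 800 CPM in WT and from 842 to 1069 CPM in Gsdmd-/-, a log2 fold change of 0.41 ± 0.10 (adjusted p = 0.163). Itgax ranged from 2206 to 2346 CPM in WT and from 1653 to 2080 CPM in Gsdmd-/-, at -0.25 ± 0.09 (adjusted p = 0.337). Spp1 (osteopontin) had 4572, 15912, 16736 and 3793 CPM in WT and 6695, 6711, 8066 and 6830 CPM in Gsdmd-/-. As with Plin2, each Gsdmd-/- library lay between the pairs of WT libraries. The log2 fold change of Spp1 was -0.54 ± 0.43 (adjusted p = 0.677), and it turned to 0.75 without WT 2 and WT 3 (adjusted p = 0.0196). Axl, a receptor for apoptotic cells named here after its values were seen, was the other gene called without them, at -0.73 (adjusted p = 0.0427). These are 2 of 71 genes, beside 1.21% of all 13288 genes tested without WT 2 and WT 3. That comparison has 2 WT libraries, WT 1 and WT 4, and both calls rest on them. They were the lowest of all 8 libraries in Spp1 and the highest in Axl.

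**Figure D4:**
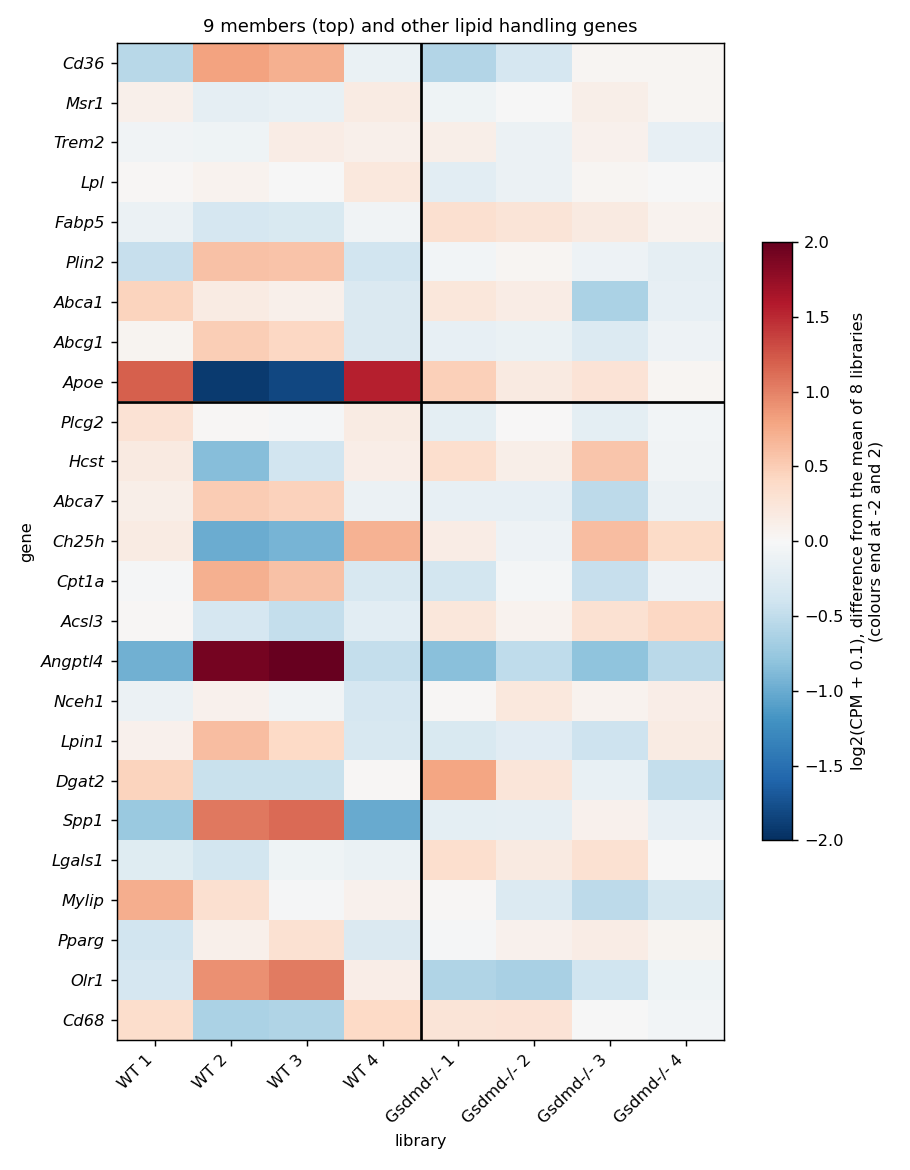
Log2 CPM of the 9 members tested (top block) and 16 other lipid handling genes (lower block) in each library, as difference from the mean of the 8 libraries (red above, blue below, colours end at -2 and 2). For this figure a small constant was added to each CPM in place of the prior count. WT 2 and WT 3 are red in Cd36, Plin2, Abcg1, Olr1, Cpt1a, Angptl4 and Spp1 and blue in Apoe, Cd68 and Ch25h, and only some rows, such as Fabp5 and Lgals1, change at the line between WT and Gsdmd-/-.

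Members were also described by the genes whose log2 CPM followed theirs most closely among 12036 genes, over 8 libraries that share the split of WT. The nearest 2 were Snap25 and Gpr176 for Cd36 (Pearson r = 0.99 for both), Fbxo32 and Scarb2 for Plin2 (0.99 for both), Tnpo2 and Virma for Abcg1 (0.99 for both), and Ttc1 and Rhoh for Msr1 (0.98 and 0.97). Apoe was followed by Rps6ka4 and by C1qc, a subunit of the complement component C1q (1.00 for both). C1qc had 121, 14.5, 13.4 and 148 CPM in WT and 67.4, 51.8, 61.1 and 43.3 CPM in Gsdmd-/-, so the low pair and the order of the groups were those of Apoe. Without WT 2 and WT 3, over 6 libraries, its r with Apoe was 0.99. Fabp5 was nearest to 1810026B05Rik and Mettl17 (0.99 and 0.98), Trem2 to Bola3 and Romo1 (0.98 and 0.97), Lpl to Ubap1 and Ehd1 (0.94 for both) and Abca1 to Cplane1 and Itga6 (0.97 and 0.96). These values are a description and were not tested.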

How the data were processed

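Total RNA was extracted with Trizol, libraries were made with the TruSeq RNA kit, and the authors deposited 1 table of raw read counts per gene for 8 libraries, not normalized. The submitters' processing notes name mm10, and the aligner, counting tool, annotation and strand setting are not given in the sources used here. All 8 count columns were matched to samples by label, and 0 columns of other samples were found. Of 54532 genes, 54495 were in GENCODE M21 (GRCm38), the source of positions and exon lengths, which join all annotated exons. Total counts were 14935114 to 16794810, and intervals and floors cover counting error only.

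Counts were filtered with filterByExpr, scaled by TMM and tested with the quasi-likelihood test of edgeR 4.0.16 (R 4.3.3), two-sided, genotype as the only term, with Benjamini-Hochberg adjustment over all genes tested. The study's text names both limma and edgeR. CPM use TMM factors, log2 CPM a prior count of 2. Alternatives were upper-quartile and RLE scaling, testing without a filter or with 10 or more counts in all libraries, DESeq2 1.42.0, limma voom 3.58.1, a replicate block, each library left out, WT 2 and WT 3 left out, and a stricter log2 fold change of 1. The members, lists and alternatives were chosen with earlier results of these data known. The genes named are the 10 members, Gsdmd, other lipid handling genes that passed a threshold or had the highest or lowest log2 fold change of their list, and the 2 genes nearest to each member in log2 CPM, among genes with a mean of at least 1 CPM. Outside this rule, the cell type markers, Acsl1, Lmf1, Itgax, Axl, Apoc2 and Apoc4 were picked once their values had been seen. No gene other than Gm25447, an rRNA gene inside Abcg1 with 6 counts, overlapped a member. No libraries agreed within sampling noise.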

Additional observations from a re-analysis of the deposited data

Results flagged for a closer look

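Of 56 groups of 4 libraries checked (the members, their sum, Gsdmd and the named lipid handling genes, in each genotype), 2 held a library far from the other 3, and chance alone flags about 1 group in 20. Abca7 had 45.2 CPM in Gsdmd-/- 3, the lowest of 4, while the other Gsdmd-/- libraries had 57.4 to 59.8 CPM. Spp1 had 8066 CPM in Gsdmd-/- 3, the highest of 4, while the other Gsdmd-/- libraries had 6695 to 6830 CPM. No member had such a library in either genotype.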

How the results depend on the processing

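Over 144 alternative values of the members' log2 fold changes, 130 kept direction and side of the threshold, 2 newly passed it and 12 changed sign. Leaving out WT 2 and WT 3 turned Cd36 to 0.14, Plin2 to 0.36 and Msr1 to -0.12, and limma voom and the replicate block turned Apoe to 0.49 and 0.50. With 1 library left out at a time, Apoe ran from -0.63 (without WT 2) to 0.33 (without WT 4; 0.04 without WT 1), Msr1 from -0.031 to 0.088 and Trem2 from -0.086 to 0.0051. Without changing sign, Cd36 ran from -0.71 (without WT 1) to -0.30 (without WT 2), Plin2 from -0.39 (without WT 1) to -0.061 (without WT 3; -0.063 without WT 2), Abca1 from -0.31 (without WT 4) to -0.042 (without Gsdmd-/- 3; -0.069 without WT 1), Abcg1 from -0.50 (without WT 4) to -0.27 (without WT 2), Lpl from -0.18 to -0.093 (without WT 4) and Fabp5 from 0.37 to 0.46. Of the members, DESeq2 called 1 higher (Fabp5), and leaving out WT 2 and WT 3 called 1 lower (Apoe). At the study's cutoff 1 member was lower with no filter (Marco), without WT 1 (Cd36, at -0.71) and without WT 2 and WT 3 (Apoe), and the range over single libraries left out was 0 to 1. Single libraries left out gave 0 members called higher and 0 called lower. Marco had no value in the main comparison, nor under alternatives that keep a filter on low counts. Of the other lipid handling genes, 1 higher and 1 lower were called by DESeq2 (Lgals1 and Olr1) and likewise without WT 2 and WT 3 (Spp1 and Axl). At the study's cutoff, 0 were higher with RLE normalization, at least 10 counts in every library or DESeq2, and 2 were lower with limma voom. With single libraries left out 0 to 3 were higher and 2 to 9 lower, the most in both directions without WT 4, and 2 were higher without WT 1. Without WT 2 and WT 3, 1 was higher and 4 were lower, beside 378 and 397 of 12911 genes. Under the other alternatives the share of all genes at this cutoff was not taken. The counts of members and lipid handling genes there are therefore not a result about these genes. Over all genes 18 were called higher and 27 lower. These counts became 44 and 65 with no filter, 105 and 187 with DESeq2, 53 and 108 without WT 2 and WT 3, and 8 to 28 and 5 to 56 with single libraries left out, the most without WT 4. The cause of these moves was not tested, though fewer libraries are compared where some are left out.

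The replicate number as a block gave 9 genes higher and 16 lower, 0 of them members, and a log2 fold change of 0.42 for Fabp5 (adjusted p = 0.291). The labels number the libraries without saying that a number marks a shared mouse or day, and the deviations of same-numbered libraries from their group means correlated at 0.0268, 0.182, 0.0412 and -0.201, so the numbers were not taken as pairs. Depth limits only Marco among the members, whose counts were too few for a fold change.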
